A study of Homo sapiens with 16 samples.

Results

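The ZNF mRNAs described here are the transcripts of human genes whose symbol is ZNF followed by a number, measured in RNA recovered with the RNA-binding protein HuR. A gene was taken where a probe had a detection p-value under 0.05 on at least 4 of 16 arrays, and the probe with the highest mean intensity stood for it. This gave 67 genes of the 486 ZNF-numbered genes with a probe on the array, or 13.8%. The genes were thus chosen by their detection values over all 16 arrays, which are given below as a description.

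The RNA came from immunoprecipitates (IPs) of U2OS, an osteosarcoma cell line of human origin, synchronized in the cell cycle at a phase that the labels do not give. The 4 groups of 4 biological replicates were HuR IPs and IgG IPs from cells given an siRNA to MIR100HG, a long noncoding RNA, and HuR IPs and IgG IPs from cells given a control siRNA, each siRNA for 48 hours. The protocol spells the siRNA target differently (mIR-110HG) from the titles. By its title, the study asked whether MIR100HG transcripts alter how HuR interacts with its target mRNAs.

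Most ZNF-numbered genes encode C2H2 zinc finger proteins, which bind DNA through arrays of finger motifs and form the largest family of human transcription factors. Many carry a KRAB domain, which recruits the corepressor TRIM28 and the methyltransferase SETDB1 to silence transposable elements and other loci. Their mRNAs are typically scarce and short-lived, and many of the genes lie in clusters on chromosome 19. HuR, the product of ELAVL1, binds U-rich and AU-rich stretches of mRNAs, often in 3′ untranslated regions, and is known to stabilise many of its targets.

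The arrays were dim. The median deposited intensity of an array was between 48 and 50 in HuR IPs and between 42 and 45 in IgG IPs under MIR100HG siRNA, and between 46 and 47 in HuR IPs and between 45 and 47 in IgG IPs under control siRNA. Replicate 2 of the MIR100HG-siRNA HuR IPs stood apart, with 5836 probes detected and a highest intensity of 6370. Results that rest on it are given with and without it. On replicates 1, 3 and 4 of that group the highest intensities were 327, 314 and 334. They ran from 770 to 1420 in HuR IPs under control siRNA. In IgG IPs they ran from 296 to 339 under MIR100HG siRNA and from 335 to 413 under control siRNA. Results without replicate 2 thus rest on 3 HuR arrays whose highest intensities lay in the IgG range. The part of this in lower values under MIR100HG siRNA was not tested. Of 8 mesenchymal or osteoblast markers only CD44 and ITGB1 were detected on at least 4 arrays, against 1 of 4 epithelial markers (KRT18) and 0 of 3 leukocyte markers. The highest mean of a probe over the arrays was 291 for ITGB1 and 76 for CD44. SPARC, RUNX2 and ALPL were detected on 0 arrays, so most of these lineage markers gave little signal in these IPs. MIR100HG and ELAVL1 were also detected on 0 arrays, and depletion of MIR100HG could not be checked. In an IP, less recovery per transcript and less of the transcript in the cells cannot be told apart.

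Among the 67 ZNF genes 65 are protein-coding and 2, ZNF252P and ZNF876P, are pseudogenes, by the RefSeq annotation of GRCh38.p14. In that annotation 32 of the 67 lie on chromosome 19, or 47.8%, against 47.3% of the 419 ZNF genes that were not taken. Only 4 pairs of them are next to each other among protein-coding genes. ZNF460 and ZNF543, ZNF773 and ZNF549, and ZNF329 and ZNF274 neighbour each other on chromosome 19, and ZNF487 and ZNF239 on chromosome 10. Members of this family can share long stretches of sequence, and the probe sequences were not used here, so the share of a probe's signal that comes from a close paralog is unknown.

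Most of the 67 mRNAs stood barely above the background of the arrays. Their mean intensity over 16 arrays ran from 46.4 to 187 with a median of 52.9, and 62 of them lay under 60. The 5 brightest were ZNF674 with a mean of 187, ZNF876P with 93.2, ZNF430 with 75.3, ZNF22 with 74.4 and ZNF486 with 67.7. Replicate 2 of the MIR100HG-siRNA HuR IPs, at 1388, 473, 328, 213 and 219 in that order, raised these means. At the edge of the choice, 14 genes were detected on exactly 4 arrays, with means from 46.4 to 57.6, and 21 genes left out were detected on 3, with means from 48.2 to 54.6. None of the 67 was detected on all 16 arrays or in 1 group alone. However, 21 of them (31.3%, against 27.4% of all features) had fewer than 4 detected arrays outside the HuR IPs under control siRNA, and so met the rule only with the help of that group. ZNF14, ZNF266, ZNF273, ZNF394, ZNF430, ZNF549 and ZNF682 were among these 21, so comparisons that involve that group are not independent of how they were chosen. In the same way 17 of the 67 (25.4%, against 27.9% of all features) needed the HuR IPs under MIR100HG siRNA. The IgG IPs were needed by 11 under MIR100HG siRNA (16.4%, against 18.5%) and by 7 under control siRNA (10.4%, against 18.4%). Comparisons that involve those groups are likewise not independent of the choice. Of the 67, 22 also met the rule at a detection p under 0.01. A further 296 ZNF genes were detected on no array.

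On average more of the 67 were detected in HuR IPs than in IgG IPs. Arrays of HuR IPs under MIR100HG siRNA detected 35, 48, 32 and 28 of them, and IgG IPs with that siRNA 25, 27, 30 and 28. Arrays of HuR IPs under control siRNA detected 36, 42, 41 and 33, and IgG IPs with that siRNA 37, 30, 17 and 28. The groups overlap for both siRNAs. All 4680 genes and unnamed probes that met the same detection rule did likewise, at 53.9% detected per array in HuR IPs and 40.8% in IgG IPs under MIR100HG siRNA, and 52.2% in HuR IPs and 43.0% in IgG IPs under control siRNA. For the 67 these shares averaged 53.4% in HuR IPs and 41.0% in IgG IPs under MIR100HG siRNA, and 56.7% in HuR IPs and 41.8% in IgG IPs under control siRNA.

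**Figure D1:**
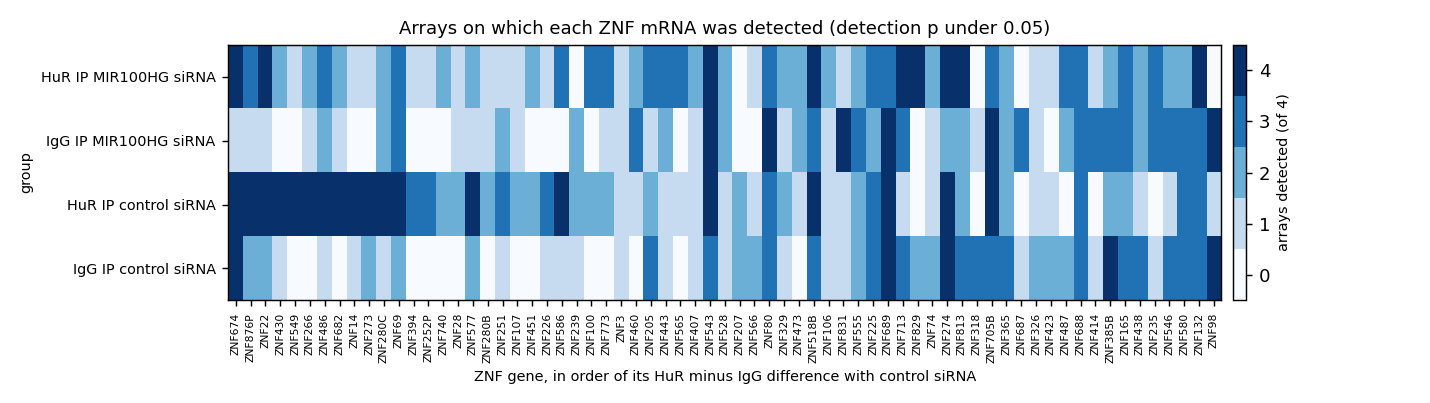
Each column is 1 of the 67 ZNF genes, in order of its HuR minus IgG difference under control siRNA, each row is 1 group, and the shade gives the number of the group's 4 arrays with a detection p under 0.05. The genes at the left were detected on 4 of 4 HuR IPs under control siRNA and, apart from ZNF674 with 4, on at most 2 of 4 IgG IPs under that siRNA, while most other genes show no such order.

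The first comparison was the HuR enrichment in cells under control siRNA. HuR IPs held more ZNF674, ZNF876P, ZNF22, ZNF430, ZNF549, ZNF266 and ZNF682 mRNA than IgG IPs, and no ZNF mRNA was lower. These 7 of 67 (10.4%) passed limma at an adjusted p under 0.05 with Benjamini-Hochberg adjustment over all 4680 features, of which 5.75% were higher and 1.13% lower. Without ZNF430, which was singled out with its enrichment known, they are 6 of 66 (9.09%). Neither count supports anything about the ZNF mRNAs, since ZNF266, ZNF430, ZNF549 and ZNF682 met the detection rule only with the help of the HuR IPs in this comparison. The median difference over the 67 was 0.00 on the log2 scale, against -0.02 over all features, and 51 of the 67 lay within 0.25 of 0. Log2 differences are of background-corrected, quantile-normalized values with an offset of 16, which compresses the differences of dim probes. The calls depended on the scaling, on the filter and on replicate 2 of the MIR100HG-siRNA HuR IPs. With no detection filter, and so with adjustment over more features, ZNF674 (limma adjusted p = 0.0722), ZNF682 (adjusted p = 0.103), ZNF876P (adjusted p = 0.124) and ZNF430 were no longer called, and with an intensity trend in the variance ZNF674 was not (limma adjusted p = 0.172). With all 16 arrays, none of the 67 was called after median centring (background 0.0855% higher) or with no scaling (0.107%). Without that array 10 were called higher after quantile normalization (background 8.78%), 13 after median centring (10.9%) and 13 with no scaling (11.5%), each time including the 7.

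ZNF674, an X-linked gene of a KRAB zinc finger protein, had the highest intensities. HuR IPs under control siRNA read 194, 257, 289 and 163 in replicates 1 to 4, against 71, 61, 67 and 68 in IgG IPs. Every HuR array lay above every IgG array, and the probe was detected on 4 of 4 arrays in both groups. The log2 difference was 1.40 ± 0.30 (SE, n = 4 arrays per group; limma adjusted p = 0.00858). Each SE of a log2 difference comes from a spread that the fit shares between all groups. It is thus not the spread of the compared arrays alone. The log2 difference also moves with an array outside the comparison, since all arrays share 1 quantile distribution. It was 1.04 (limma adjusted p = 0.00124) without replicate 2 of the MIR100HG-siRNA HuR IPs.

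ZNF876P, a transcribed pseudogene on chromosome 4, read 113, 128, 103 and 85 in HuR IPs under control siRNA, against 64, 51, 54 and 52 in IgG IPs. The groups did not overlap, and the log2 difference was 1.31 ± 0.31 (limma adjusted p = 0.0160). ZNF22 encodes a zinc finger protein without a KRAB domain. It read 103, 102, 91 and 84 in HuR IPs, against 58, 58, 48 and 52 in IgG IPs, again without overlap (1.17 ± 0.19, limma adjusted p = 0.00148). A second ZNF22 probe read 81, 86, 89 and 59 in HuR IPs, against 47, 43, 44 and 46 in IgG IPs, and differed by 1.11 (limma adjusted p = 0.00934). Both ZNF22 probes therefore gave the same direction. The second was detected on 4 of 4 HuR arrays and 0 of 4 IgG arrays, so the sizes cannot be compared.

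ZNF430, a KRAB zinc finger gene in a cluster on chromosome 19, was singled out with its enrichment in these data known, and its values are a description without a p-value. It read 88, 91, 81 and 67 in HuR IPs under control siRNA, against 59, 48, 50 and 49 in IgG IPs. The groups did not overlap, and the probe was detected on 4 of 4 HuR arrays and 1 of 4 IgG arrays. The log2 difference was 1.01 ± 0.25. ZNF430 and ZNF876P each lost their call when any 1 of IgG replicates 2 and 4 or HuR replicates 1 and 2 of the control siRNA was left out, with values between 0.71 and 1.15 for ZNF430, and between 0.90 and 1.53 for ZNF876P (highest limma adjusted p = 0.0588), over all 16 single omissions.

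ZNF549, ZNF266 and ZNF682, KRAB zinc finger genes of chromosome 19, were detected on 4 of 4 HuR IPs and on 0 of 4 IgG IPs under control siRNA, so their enrichment has only a lower bound. The bound sets the mean of the HuR arrays against IgG values that were raised to the lowest normalized signal, on that array, among probes with a detection p under 0.01. ZNF549 read 64, 69, 71 and 58 in HuR IPs, against 49, 47, 45 and 49 in IgG IPs, at least 1.22-fold higher (limma adjusted p = 0.00315). ZNF266 read 65, 69, 66 and 59 in HuR IPs, against 49, 50, 50 and 46 in IgG IPs, at least 1.23-fold higher (limma adjusted p = 0.00164). Both kept their call in all 16 fits that left out 1 array. ZNF682 read 61, 62, 57 and 56 in HuR IPs, against 48, 49, 49 and 45 in IgG IPs, at least 1.04-fold higher (limma adjusted p = 0.0197). Its call was lost without IgG replicate 1 or 4 or HuR replicate 1 or 2 of the control siRNA (highest limma adjusted p = 0.0810). ZNF549, ZNF266 and ZNF682 met the detection rule only with the help of these HuR IPs. Their p-values and the fits that left out 1 array are thus a description of chosen genes. With no detection filter ZNF549 and ZNF266 stayed called and ZNF682 did not.

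Several further ZNF mRNAs lay higher in HuR IPs under control siRNA without passing the threshold. ZNF486, a KRAB zinc finger gene of chromosome 19, read 72, 69, 70 and 61 in HuR IPs, against 53, 50, 49 and 58 in IgG IPs, without overlap (0.61 ± 0.20, limma adjusted p = 0.0917). ZNF14 read 59, 65, 62 and 54 in HuR IPs, against 54, 50, 50 and 49 in IgG IPs, touching at 54 (0.41 ± 0.12, limma adjusted p = 0.0551). ZNF394, which encodes both a SCAN and a KRAB domain, read 54, 58, 58 and 46 in HuR IPs, against 47, 42, 45 and 45 in IgG IPs. It was detected on 3 of 4 HuR arrays and 0 of 4 IgG arrays, and differed by 0.33 ± 0.12 (limma adjusted p = 0.146).

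By detection, under control siRNA 5 of the 67 (7.46%) were detected on at least 3 of 4 HuR IPs and on no IgG IP, where 8.46% of all features were, so the share is near the background. These were ZNF549, ZNF266, ZNF682, ZNF394 and ZNF252P. The pseudogene ZNF252P read 53, 57, 67 and 46 in HuR IPs, against 52, 46, 45 and 45 in IgG IPs, with overlap (0.32 ± 0.22, limma adjusted p = 0.618). ZNF318 alone had the opposite pattern (background 1.45%), at 51, 51, 49 and 52 in HuR IPs, against 56, 55, 53 and 47 in IgG IPs (-0.12 ± 0.10, limma adjusted p = 0.744). The 5 above met the detection rule only with the help of these HuR IPs, and ZNF318 only with that of these IgG IPs. Both patterns are thus a description of chosen genes.

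**Figure D2:**
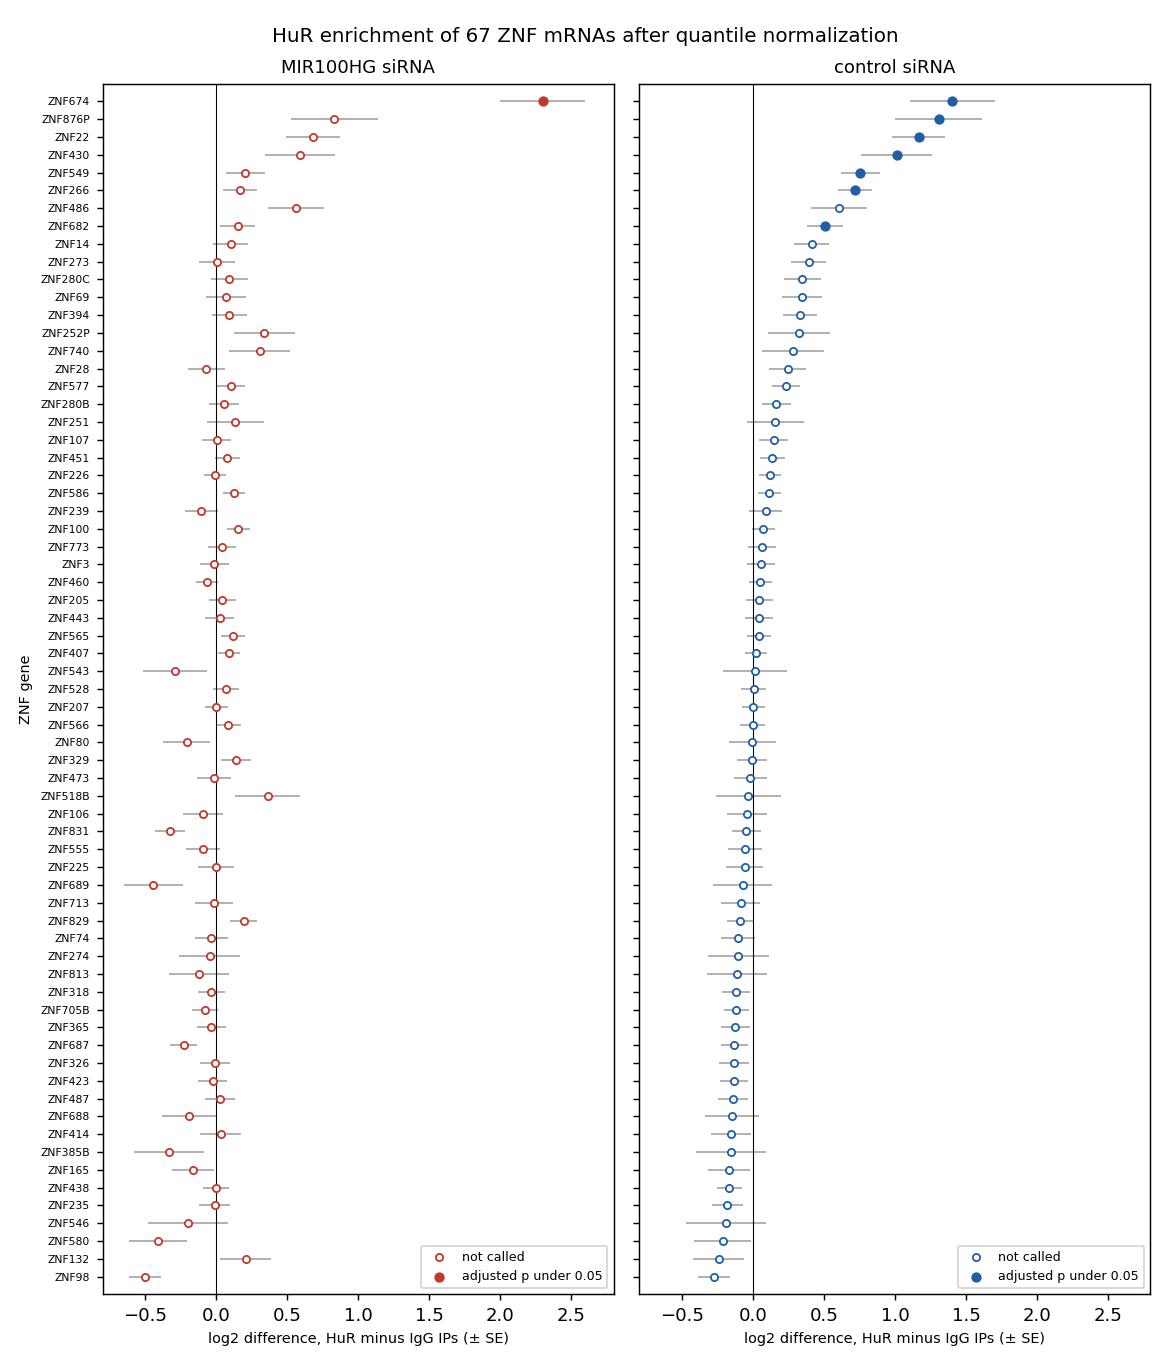
Each row is 1 of the 67 ZNF genes, points give the log2 difference between HuR and IgG IPs and bars its SE (4 arrays per group), under MIR100HG siRNA at left and control siRNA at right. The SE comes from a spread that the fit shares between all groups, so it is not that of the panel's arrays alone. Filled points passed limma at an adjusted p under 0.05, 1 at left (ZNF674) and 7 at right, and most rows lie near 0 in both panels.

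Under MIR100HG siRNA, HuR IPs held more ZNF674 mRNA than IgG IPs, and no other ZNF mRNA passed. This 1 of 67 (1.49%) stands against 0.256% of all features called higher and 0.0427% called lower. The median difference was 0.01 over the 67 and 0.02 over all features on the log2 scale. On the deposited intensities 36 of the 67 lay higher on every HuR array than on every IgG array, but so did 54.3% of all features, beside array medians of 48 to 50 in HuR IPs and 42 to 45 in IgG IPs. Under control siRNA the same count was 10 of 67, against 9.08% of all features.

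ZNF674 read 86, 1388, 87 and 65 in HuR IPs under MIR100HG siRNA, against 56, 44, 49 and 51 in IgG IPs. Replicate 2 was 1388 and the other 3 HuR arrays lay between 65 and 87, still above every IgG array. The log2 difference was 2.30 ± 0.30 (limma adjusted p = 0.00111), and 1.47 (limma adjusted p = 0.00240) without replicate 2. With median centring in place of quantile normalization it was 2.18 (limma adjusted p = 0.296) over all arrays and 0.94 (limma adjusted p = 0.0712) without replicate 2. The call was also lost over all arrays with no scaling (limma adjusted p = 0.159), with an intensity trend (limma adjusted p = 0.120) and with only the HuR and IgG IPs of this siRNA in the fit (limma adjusted p = 0.127).

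The other mRNAs enriched under control siRNA showed the same split between replicate 2 and the rest. ZNF876P read 64, 473, 65 and 50 in HuR IPs under MIR100HG siRNA, against 50, 46, 42 and 51 in IgG IPs (0.83 ± 0.31, limma adjusted p = 0.367). ZNF22 read 66, 213, 64 and 57, against 49, 44, 49 and 53 in IgG IPs (0.68 ± 0.19, limma adjusted p = 0.163). ZNF430 read 62, 328, 55 and 51, against 42, 41, 47 and 45 in IgG IPs, with a log2 difference of 0.59 ± 0.25 that was 0.22 without replicate 2. In ZNF22 and ZNF430 all 4 HuR arrays lay above the IgG arrays, while in ZNF876P the lowest HuR array, at 50, lay under the highest IgG array, at 51.

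ZNF486 read 66, 219, 63 and 54 in HuR IPs under MIR100HG siRNA, against 49, 50, 51 and 49 in IgG IPs, without overlap (0.56 ± 0.20, limma adjusted p = 0.330). ZNF549 read 47, 120, 50 and 44 in HuR IPs, against 40, 39, 45 and 43 in IgG IPs, and was detected on replicate 2 alone (0.21 ± 0.14, limma adjusted p = 0.613). ZNF266 read 51, 99, 58 and 49, against 51, 41, 46 and 44 in IgG IPs (0.17 ± 0.12, limma adjusted p = 0.624). In ZNF549 and ZNF266 HuR and IgG arrays overlapped. ZNF682 read 61, 113, 53 and 50, against 46, 47, 48 and 52 in IgG IPs, also with overlap (0.15 ± 0.12, limma adjusted p = 0.683). Replicate 2 alone carried the highest of all 16 intensities for 31 of the 67 genes (46.3%), against 38.2% of all features, and tied for the highest in 4 more.

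By detection, ZNF829, ZNF565, ZNF586 and ZNF100 were found on at least 3 of 4 HuR IPs and on no IgG IP under MIR100HG siRNA. These 4 of 67 (5.97%) stand against 4.85% of all features. All but ZNF586 met the detection rule only with the help of these HuR IPs, so their values are a description of chosen genes. ZNF829, a KRAB zinc finger gene of chromosome 19, read 58, 57, 59 and 60 in HuR IPs, against 49, 46, 49 and 49 in IgG IPs. Replicate 2 was no exception for this gene, whose 4 HuR arrays lay within 3 units of each other, and the log2 difference was 0.19 ± 0.10 (limma adjusted p = 0.506). Its HuR IPs under control siRNA read 47, 45, 52 and 52 with 0 of 4 detected, against 54, 54, 51 and 47 in IgG IPs. ZNF565 read 59, 53, 58 and 57 in HuR IPs under MIR100HG siRNA, against 45, 47, 48 and 50 in IgG IPs (0.12 ± 0.08, limma adjusted p = 0.624). The log2 difference was 0.13 ± 0.08 for ZNF586 (limma adjusted p = 0.593) and 0.16 ± 0.08 for ZNF100 (limma adjusted p = 0.526).

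ZNF98 and ZNF687 were detected on at least 3 of 4 IgG IPs and on no HuR IP under MIR100HG siRNA, where 1.39% of all features were. ZNF98 read 56, 47, 54 and 52 in HuR IPs, against 53, 48, 55 and 56 in IgG IPs, and overlapped on this scale. After normalization its log2 difference was -0.50 ± 0.11 (limma adjusted p = 0.0669), the lowest of the 67. Under control siRNA it was detected on 1 of 4 HuR IPs and 4 of 4 IgG IPs (-0.27 ± 0.11, limma adjusted p = 0.228). ZNF687 read 56, 53, 48 and 51 in HuR IPs under MIR100HG siRNA, against 52, 45, 52 and 53 in IgG IPs (-0.23 ± 0.10, limma adjusted p = 0.449). ZNF831 lay in the same direction at -0.32 ± 0.10 (limma adjusted p = 0.273), with 1 of 4 HuR arrays and 4 of 4 IgG arrays detected. ZNF687 and ZNF831 met the detection rule only with the help of the IgG IPs under MIR100HG siRNA. Their values in this comparison are thus a description of chosen genes.

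**Figure D3:**
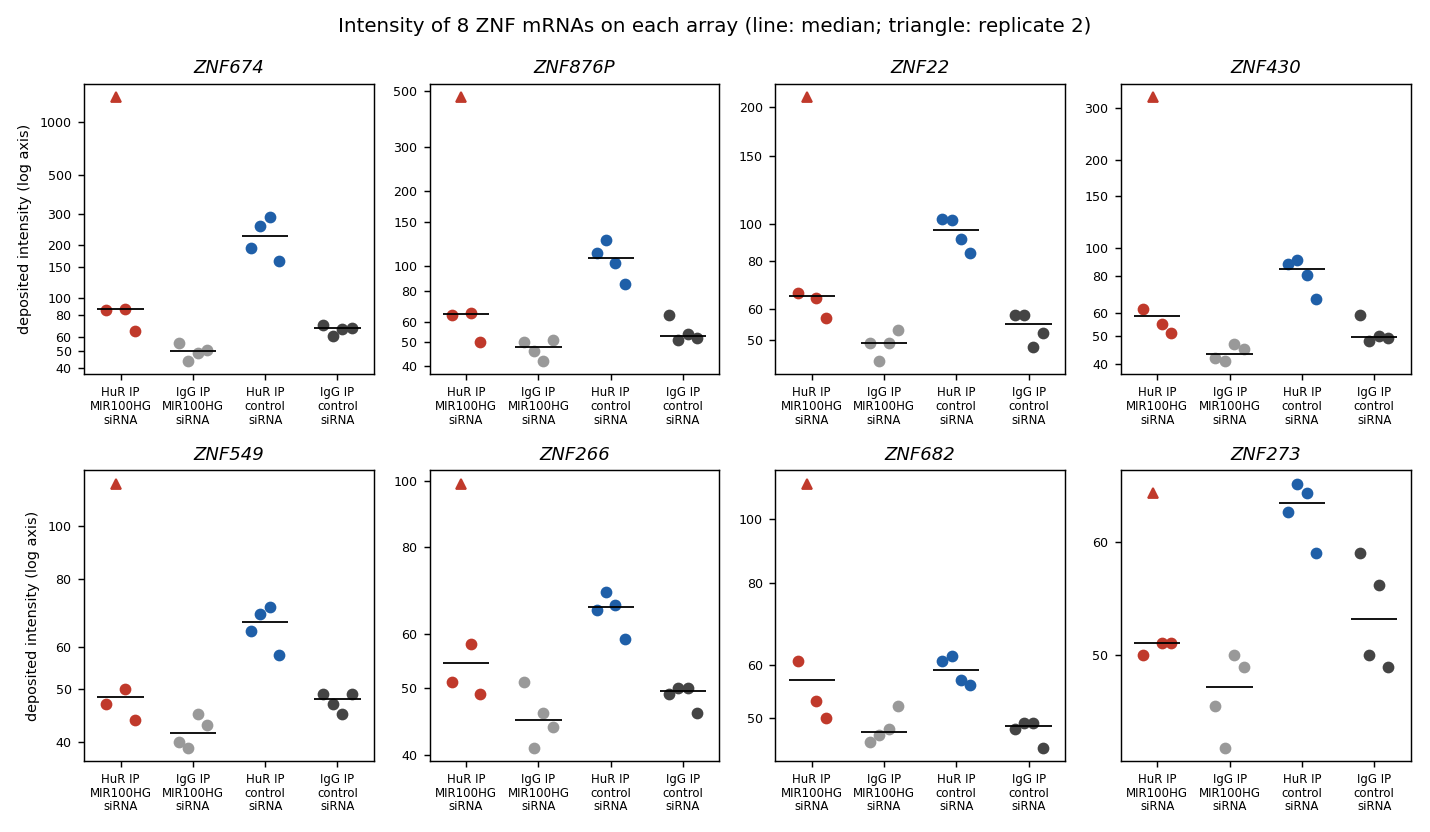
Deposited intensity on a log axis of 8 ZNF mRNAs on each of 16 arrays, by group, with a line at the median of the group's 4 arrays; the triangle is replicate 2 of the MIR100HG-siRNA HuR IPs. Apart from ZNF682, replicates 1, 3 and 4 of the HuR IPs under MIR100HG siRNA lie below all 4 HuR IPs under control siRNA, while replicate 2 lies above them in all but ZNF273.

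Within HuR IPs, MIR100HG siRNA was set against control siRNA. ZNF273, ZNF549 and ZNF266 mRNA were lower under MIR100HG siRNA and none was higher, by limma at an adjusted p under 0.05. These 3 of 67 (4.48%) stand against 1.97% of all features called lower and 0% called higher. The median difference over the 67 was 0.02 on the log2 scale, equal to that over all features at this precision.

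ZNF273, a KRAB zinc finger gene on chromosome 7, read 50, 65, 51 and 51 in HuR IPs under MIR100HG siRNA, against 63, 66, 65 and 59 in HuR IPs under control siRNA. Replicate 2 overlapped the control siRNA arrays and the other 3 lay below them. The log2 difference was -0.63 ± 0.12 (limma adjusted p = 0.0148). IgG IPs read 46, 43, 50 and 49 under MIR100HG siRNA, against 59, 50, 56 and 49 under control siRNA, a difference in the same direction that did not pass (-0.25 ± 0.12, limma adjusted p = 0.554). ZNF549 differed by -0.62 ± 0.14 (limma adjusted p = 0.0293) and ZNF266 by -0.55 ± 0.12 (limma adjusted p = 0.0258) between HuR IPs, from the arrays given above.

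All 3 genes met the detection rule only with the help of the HuR IPs under control siRNA, the group where they were higher, so these calls are a description of chosen genes. They were sensitive to single arrays, the scaling, the filter and the groups in the fit. None of the 67 was called here after median centring or with no scaling over all 16 arrays. With no detection filter ZNF273 (limma adjusted p = 0.0837), ZNF266 (adjusted p = 0.131) and ZNF549 (adjusted p = 0.163) were all lost. With only the HuR IPs in the fit ZNF266 (limma adjusted p = 0.139) and ZNF549 (adjusted p = 0.237) were lost, and with no background correction ZNF266 was (limma adjusted p = 0.0834). The calls of ZNF549 and ZNF266 were lost without any 1 of HuR replicates 1, 2 and 3 of the control siRNA or 1, 3 and 4 of the MIR100HG siRNA (highest limma adjusted p = 0.128 for ZNF549 and 0.110 for ZNF266). That of ZNF273 was lost without HuR replicate 1 of the control siRNA or 1, 3 or 4 of the MIR100HG siRNA (highest limma adjusted p = 0.0640). The log2 difference stayed between -0.68 and -0.56 for ZNF549, between -0.58 and -0.49 for ZNF266 and between -0.65 and -0.53 for ZNF273 in all 16 such fits.

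Without replicate 2 of the MIR100HG-siRNA HuR IPs, 8 of the 67 (11.9%) were lower in the remaining HuR IPs under MIR100HG siRNA. This was so in 9.21% of all features, so the share is near the background. The added genes were ZNF14, ZNF22, ZNF394, ZNF430 and ZNF876P. After median centring 14 were lower (background 12.9%) and ZNF829 was higher (background 1.62%), and with no scaling 11 were lower (12.3%) and ZNF829 and ZNF487 were higher (2.69%). On the deposited intensities, each of replicates 1, 3 and 4 lay below all 4 HuR IPs under control siRNA in 8 of the 67 (11.9%). The share of all features was 9%, again near that of the 67. These 8 were ZNF22, ZNF266, ZNF273, ZNF394, ZNF430, ZNF549, ZNF674 and ZNF876P. In 11 of the 67 (16.4%), ZNF829 and ZNF565 among them, each of those 3 arrays lay above all 4, against 25.2% of all features. ZNF14, ZNF266, ZNF273, ZNF394, ZNF430 and ZNF549 met the detection rule only with the help of the HuR IPs under control siRNA. The shares of lower genes are therefore not independent of how the genes were chosen. ZNF829 and ZNF565 met that rule only with the help of the HuR IPs under MIR100HG siRNA. The same therefore holds for the shares of higher genes. Replicates 1, 3 and 4 had highest intensities in the range of the IgG IPs, and the part of this in these counts was not tested.

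For ZNF674 replicates 1, 3 and 4 averaged 79.3 ± 12.4 (SD, n = 3) under MIR100HG siRNA, against 226 ± 57.5 (SD, n = 4) under control siRNA, both in HuR IPs. ZNF876P averaged 59.7 ± 8.39 over those 3 arrays, against 107 ± 18.0 under control siRNA. ZNF430 averaged 56.0 ± 5.57, against 81.8 ± 10.7 under control siRNA. ZNF22 averaged 62.3 ± 4.73, against 95 ± 9.13 under control siRNA. With replicate 2 included the means of the MIR100HG siRNA group turn the other way, at 407 ± 654 for ZNF674, 163 ± 207 for ZNF876P, 124 ± 136 for ZNF430 and 100 ± 75.4 for ZNF22 (SD, n = 4).

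How far quantile normalization keeps these differences also depended on the gene. Without replicate 2, ZNF674 differed by -0.45 (limma adjusted p = 0.225) after quantile normalization and by -2.14 (limma adjusted p = 2.5e-07) after median centring. ZNF22 differed by -0.52 (limma adjusted p = 0.0190) and by -1.23 (limma adjusted p = 4.2e-07). ZNF549, closer to background, differed by -0.62 (limma adjusted p = 4.9e-06) and by -0.87 (limma adjusted p = 2.8e-06). The direction was the same under both scalings for these 3 genes.

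Within IgG IPs no ZNF mRNA passed between MIR100HG and control siRNA, against 1.11% of all features called in either direction, and 4 of the 67 (5.97%) had an unadjusted limma p under 0.05, against 9.76% of all features. ZNF674 read 56, 44, 49 and 51 in IgG IPs under MIR100HG siRNA, against 71, 61, 67 and 68 under control siRNA. The groups did not overlap, and the probe was detected on 1 of 4 arrays under MIR100HG siRNA and 4 of 4 under control siRNA (-1.25 ± 0.30, limma adjusted p = 0.0587). Array medians were also lower, at 42 to 45 in IgG IPs under MIR100HG siRNA and 45 to 47 under control siRNA, and their part in this was not tested. The difference was called without IgG replicate 1 or HuR replicate 2 or 4 of the MIR100HG siRNA. The KRAB zinc finger genes ZNF543 and ZNF689 lay higher under MIR100HG siRNA, at 0.52 ± 0.23 and 0.45 ± 0.21 (limma adjusted p = 0.447 and 0.503), with overlapping intensities.

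The last comparison asked whether the HuR enrichment itself differed between the siRNAs, as the enrichment under MIR100HG siRNA minus that under control siRNA. No ZNF mRNA passed over all 16 arrays by limma, against 0.107% of all features, and 4 of the 67 (5.97%) had an unadjusted p under 0.05, against 7.5% of all features. The median was -0.02 over the 67 and 0.01 over all features. ZNF266 differed by -0.55 ± 0.17 (limma adjusted p = 0.360), ZNF549 by -0.55 ± 0.20 (limma adjusted p = 0.461), ZNF273 by -0.39 ± 0.18 (limma adjusted p = 0.644) and ZNF674 by 0.89 ± 0.42 (limma adjusted p = 0.651).

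Without replicate 2 the enrichment of ZNF266 and ZNF549 was smaller under MIR100HG siRNA after quantile normalization. These 2 of 67 (2.99%) stand against 3.5% of all features called lower. ZNF266 differed by -0.49 (limma adjusted p = 0.0334) and ZNF549 by -0.55 (limma adjusted p = 9.4e-04). With median centring instead, 9 of the 67 (13.4%) were lower, against 6.97% of all features, and with no scaling 8 (11.9%), against 6.2%. None was higher under any of these 3 scalings. The 8 were ZNF22, ZNF266, ZNF273, ZNF430, ZNF549, ZNF674, ZNF682 and ZNF876P, and ZNF14 joined them with median centring. Of these, ZNF14, ZNF266, ZNF273, ZNF430, ZNF549 and ZNF682 met the detection rule only with the help of the HuR IPs under control siRNA. ZNF430 was also singled out with its enrichment known. The shares above the background therefore support nothing about the ZNF mRNAs.

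ZNF430 differed in enrichment by -0.42 ± 0.35 over all arrays. Without replicate 2 it differed by -0.49 after quantile normalization, -0.97 after median centring and -0.94 with no scaling. ZNF876P differed by -0.56 (limma adjusted p = 0.233), -1.34 (limma adjusted p = 9.2e-04) and -1.31 (limma adjusted p = 0.00131) under the same 3 scalings without replicate 2. ZNF674 reversed, for it differed by 0.43 (limma adjusted p = 0.553) after quantile normalization without replicate 2, but by -1.48 (limma adjusted p = 0.00115) after median centring and -1.45 (limma adjusted p = 0.00161) with no scaling. No direction for the change in ZNF674 enrichment can be taken from these arrays.

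**Figure D4:**
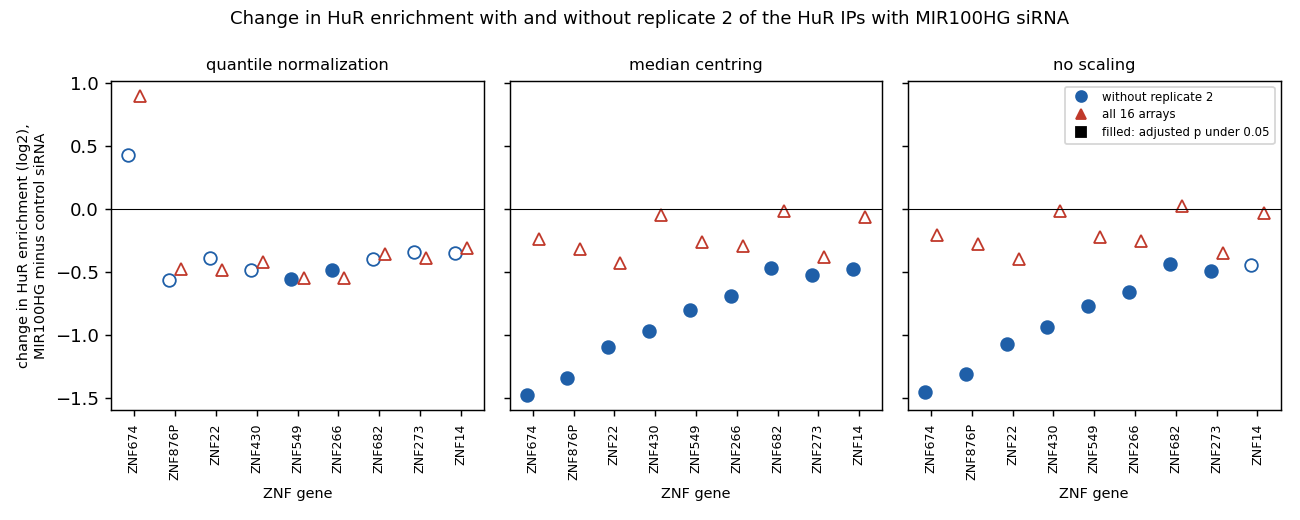
Points give, for 9 ZNF genes, the log2 HuR enrichment under MIR100HG siRNA minus that under control siRNA under 3 scalings; circles are fits without replicate 2 of the MIR100HG-siRNA HuR IPs, triangles fits to all 16 arrays, and filled symbols passed limma at an adjusted p under 0.05. No triangle is filled, most circles are filled under median centring and no scaling, and ZNF674 lies above 0 under quantile normalization and below 0 under the other scalings.

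The 43 ZNF genes not named by the rule had mean intensities from 49.5 to 59.8. In HuR against IgG IPs their log2 differences ran from -0.41 to 0.36 under MIR100HG siRNA and from -0.24 to 0.35 under control siRNA, and none passed. Some have known roles, and those named next were picked for their roles after their values were seen. ZNF207, a kinetochore and spindle protein, was detected on 0 of 4 HuR and 0 of 4 IgG IPs under MIR100HG siRNA and 2 of 4 of each under control siRNA, with a HuR minus IgG difference of 0.00 ± 0.08 with either siRNA. ZNF274, which recruits SETDB1 to the 3′ ends of zinc finger genes, was detected on 4 of 4 HuR IPs and 2 of 4 IgG IPs under MIR100HG siRNA, and on 4 of 4 of each under control siRNA (-0.05 ± 0.22 and -0.10 ± 0.22). ZNF451, a SUMO ligase, was detected on 2 of 4 HuR and 0 of 4 IgG IPs with each siRNA (0.08 ± 0.09 under MIR100HG siRNA and 0.14 ± 0.09 under control siRNA).

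For 4 ZNF genes more than 1 probe met the rule. Besides ZNF22, the second probes of ZNF100, ZNF28 and ZNF205 gave log2 differences of 0.34, 0.05 and -0.01 between HuR and IgG IPs under control siRNA, against 0.07, 0.24 and 0.04 for the probes used. None of these passed limma (lowest adjusted p = 0.183, for the second ZNF100 probe).

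Genes that work with or resemble the ZNF proteins were also mostly dim. Of 17 KRAB corepressor and heterochromatin genes 3 met the detection rule (UHRF1, CHD4 and HDAC2), and 1 of them was enriched under control siRNA. It was UHRF1, a cofactor of maintenance DNA methylation, with a mean of 87.8 ± 17.4 in HuR IPs, against 48.3 ± 1.71 in IgG IPs (SD, n = 4), at least 1.79-fold higher (limma adjusted p = 5.4e-04). Between HuR IPs it was lower under MIR100HG siRNA after quantile normalization (-1.06 ± 0.17, limma adjusted p = 0.00413, and -0.95 without replicate 2). Its HuR IPs under MIR100HG siRNA read 54, 175, 50 and 44, with a mean of 80.8 ± 63.0 over all 4 and 49.3 ± 5.03 without replicate 2, against 87.8 ± 17.4 under control siRNA. Of 99 other C2H2 genes (ZFP, ZSCAN, ZKSCAN, ZBTB and KLF symbols) 13 were tested and 1 passed, ZFP91, at least 1.95-fold higher in HuR than in IgG IPs under control siRNA (limma adjusted p = 0.00343). Of 125 genes of other zinc-binding families 20 were tested and 1 passed, ZMAT3, an RNA-binding target gene of p53, higher in HuR than in IgG IPs under control siRNA (1.07 ± 0.21, limma adjusted p = 0.00585). The shares called, 1 of 13 and 1 of 20, are near the 5.75% of all features called higher in that comparison, and 1 of 3 is too few to read. Between HuR IPs ZMAT3 was lower under MIR100HG siRNA (-1.14 ± 0.21, limma adjusted p = 0.0114, and -0.995 without replicate 2). Its HuR IPs under MIR100HG siRNA read 52, 184, 51 and 50, with a mean of 84.3 ± 66.5 over all 4 and 51.0 ± 1.00 without replicate 2, against 92 ± 13.2 under control siRNA. UHRF1 and ZFP91 met the detection rule only with the help of the HuR IPs under control siRNA, so their calls are a description of chosen genes. Over all 16 arrays each call of UHRF1, ZFP91 and ZMAT3 was lost after median centring and with no scaling. The lower level of ZMAT3 was also lost with no detection filter (limma adjusted p = 0.0950). None of the tested genes of these 3 lists passed in HuR against IgG IPs under MIR100HG siRNA, in IgG IPs between siRNAs or in the change of enrichment.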

How the data were processed

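RNA from HuR and IgG immunoprecipitates of synchronized U2OS cells, with MIR100HG or control siRNA, was measured on Illumina bead arrays, per the labels. The deposited intensity values are linear and were not normalized between arrays; the submitters' processing notes name GenomeStudio 2011.1. Per the file headers, a detection p-value stands beside each. The deposited score of the series' value table was used as an alternative only, since 1 column, that of the IgG IP under MIR100HG siRNA, replicate 1, followed its own array at r = 0.0066 across probes and was left out. How the authors made the scores is not stated in the sources used here.

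The platform annotation pairs 30113 of 47231 probes with 1 gene and 8 with several, and 17110 stayed unnamed. RefSeq gave current symbols to 30074 probes by gene identifier, and 39 kept their own. The 9 probes of antisense or several-gene ZNF symbols were left out. The fit used probes detected on 4 or more arrays at p under 0.05 (4880, or 10.3%, and 10.1% of the 706 ZNF probes), 1 per gene, which left 2769 named genes and 1911 unnamed probes. Values were background corrected, quantile normalized and put on the log2 scale with neqc in limma 3.58.1 (R 4.3.3), offset 16, with negative controls that neqc infers from the deposited detection p-values. The test was limma with 4 group means over 16 arrays and a spread shared by the groups. It was run on simulated data with equal spread in all groups, no outlying array and no normalization step. That run cannot show how the test performs on arrays such as these. P-values measure the spread between these samples. The number of arrays and their low signal limit the precision.

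The ZNF genes, gene lists and tests were chosen with earlier results of these data known. Named genes were ZNF430; per comparison the genes called, or the 5 with the smallest p where fewer than 5 were called; genes detected on at least 3 of 4 arrays of HuR and no IgG array of an siRNA, or the reverse; the 5 brightest; and genes with several probes. The fit reported did not pair arrays by replicate number. Same-numbered arrays correlated between -0.13 and 0.20 after removal of group means, which cannot exclude a pairing. Alternatives changed the background correction, scaling, filter, probes, weights, model and arrays. Slides are not given here, so no slide block was fitted. A split of the genes by KRAB domain was not run. No replicates were duplicates: arrays of a group shared 8.25% to 11.0% identical intensities. Figures were drawn with matplotlib 3.10.9.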

Additional observations from a re-analysis of the deposited data

Results flagged for a closer look

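In 24 named ZNF genes and 4 groups, 96 sets of 4 arrays were checked for 1 array far from the other 3, and 15 had one. Chance flags about 1 in 20 groups. In 10 of the 15 the array was replicate 2 of the MIR100HG-siRNA HuR IPs. It read 1388 for ZNF674, where the other 3 arrays lay between 65 and 87, and 473 for ZNF876P, where they lay between 50 and 65. It read 328 for ZNF430 (others 51 to 62), 219 for ZNF486 (54 to 66), 213 for ZNF22 (57 to 66) and 199 for ZNF252P (47 to 52). Smaller gaps on this array were those of ZNF549 at 120 (others 44 to 50), ZNF394 at 74 (37 to 41), ZNF273 at 65 (50 to 51) and ZNF831 at 61 (54 to 55).

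The other 5 flags were small differences near background on other arrays. ZNF252P read 52 on replicate 1 of the IgG IPs under control siRNA, above 45 to 46 on the others. ZNF565 read 45 on replicate 3 of the same group, below 51 to 52. ZNF687 read 45 and ZNF829 read 46 on replicate 2 of the IgG IPs under MIR100HG siRNA, below 52 to 53 and below 49 on the others. ZNF831 read 54 on replicate 3 of the HuR IPs under control siRNA, above 50 on each of the others.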

How the results depend on the processing

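All 11 calls of single ZNF genes kept their sign under each of 30 settings, and 5 stayed called in each of the 16 fits that left out an array. Among the 5 were ZNF266 and ZNF549 under control siRNA, which met the detection rule only with the help of the HuR IPs compared. Counts of ZNF genes called out of 67 follow, first for HuR minus IgG under MIR100HG siRNA (1 in the fit reported), then under control siRNA (7), MIR100HG minus control siRNA in HuR IPs (3) and in IgG IPs (0), and the change in enrichment (0). Median centring and no scaling gave 0, 0, 0, 0 and 0. Quantile normalization within each IP type gave 3, 12, 3, 0 and 0, the deposited scores 0, 3, 1, 0 and 0, array weights 1, 11, 8, 1 and 1, and no filter 1, 3, 0, 0 and 0. An intensity trend gave 0 in the first, only the groups compared 0 in the first and 1 in the third, and no background correction and the filter at p under 0.01 gave 1 in the fourth. Without replicate 2 of the MIR100HG-siRNA HuR IPs, median centring gave 0, 13, 15, 0 and 9, and no scaling 1, 13, 13, 0 and 8. Leaving out 1 array gave 1 to 3, 4 to 10, 0 to 8, 0 to 1 and 0 to 2. With the replicate block the counts were 1, 7, 3, 0 and 0, and the IgG arrays of the siRNAs correlated best with their own number in 4 of 4, a hint from the data only. The change in ZNF674 enrichment was 0.89 as reported and turned to -0.24 after median centring, -0.21 with no scaling, -1.48 after median centring and -1.45 with no scaling without replicate 2, and to -2.58 in the units of the deposited scores. With no scaling the median log2 difference between HuR and IgG IPs under MIR100HG siRNA was 0.14 over all features and 0.13 over the 67, against 0.02 and 0.01 as reported. The cause of these changes was not tested. Most of the 67 lie within a few intensity units of background, which limits what any fit can show.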
